A study of Mus musculus with 16 samples.

Results

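The usage of TCRBV04-01 and TCRBV05-01 was examined in the T cell receptor β chain (TCRβ) repertoire of subcutaneous KPC tumors. These are 2 of the 35 V genes named in the deposited values, and their members were all rearrangements that the sequencing service had assigned to either gene. TCRBV04-01 accounted for 11818 and TCRBV05-01 for 12748 of the 198953 rearrangements found in 16 samples. The tumors grew from KPC-Luc cells, a luciferase-expressing mouse pancreatic cancer line, placed under the skin of female C57BL/6 mice, so that all groups shared the tumor, the sex and the strain. Treatment began 6 to 7 days after implantation and crossed a peptide with an antibody. In the control group the scrambled peptide was paired with an isotype IgG. The ANT008 group received ANT008, an antagonist of the receptors of vasoactive intestinal peptide, with IgG. The anti-PD-1 group received scrambled peptide with an antibody to PD-1, an inhibitory receptor of activated T cells, and the combination group received both agents. The peptides were given at 10 µg every day and the antibodies at 200 µg every 3 days, for 10 days. The labels describe T cells enriched from tumor suspensions by positive magnetic selection for CD90.2 to a purity of 80 to 85%. However, their text goes on to an expression panel, and the study describes the selection for that panel. For TCRβ sequencing the study's results name DNA from tumors, and its methods name harvested tumors and an RNA kit. Whether these samples were selected is therefore unsettled. The labels number 4 samples in each of the 4 groups, read here as 1 mouse each. The study asked whether the combination raised the frequency of particular T cell clones. The usage of both V genes was compared with control for each agent and for the combination. Productive templates, the service's whole-number estimate of starting molecules with an in-frame, stop-free rearrangement, ranged from 7180 to 72588 per mouse. They came from 2526 to 13939 unique productive rearrangements per mouse, and V genes left unresolved made up at most 0.0433% of productive templates. The labels and the study's methods for TCRβ sequencing name an RNA kit, while the study's results name DNA. Whether a template stands for a cell or a transcript is therefore unsettled. Only TCRβ rearrangements were measured, so the cell type could not be checked against genes of other cells.

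A TCRβ chain is assembled in the thymus when a V, a D and a J segment are cut and joined. Before joining, nucleotides are trimmed from the segment ends and others are inserted without a template, which makes the third complementarity-determining region (CDR3), the loop that contacts peptide antigen. The V segment itself encodes the other loops of the chain and the first residues of the CDR3. Many joins lose the reading frame or meet a stop codon. A T cell carries such a join only beside a functional one on its other chromosome, so out-of-frame rearrangements record how often a V gene is rearranged without selection on its own protein. TCRBV04-01 and TCRBV05-01 are Trbv4 and Trbv5 in the RefSeq gene names of mouse (assembly GRCm38.p6), with the older names Tcrb-V10 and Tcrb-V1. They follow each other directly in the V cluster, between Trbv3 and Trbv6.

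The sequence of the V segments at the border of the CDR3 separated the genes. Both ends are shown from the conserved cysteine codon to the last germline nucleotide, as the most frequent sequence among rearrangements from which no V nucleotide had been deleted, with the fifth codon in capitals.
TCRBV04-01: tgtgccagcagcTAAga
TCRBV05-01: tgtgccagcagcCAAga
This end was present in 1346 of 1419 undeleted TCRBV04-01 rearrangements (94.9%) and in 4481 of 4577 undeleted TCRBV05-01 rearrangements (97.9%). Over these 17 nucleotides the genes differed by the substitution T13C, read from TCRBV04-01 to TCRBV05-01 and counted from 1 at the first base of the cysteine codon. The fifth codon of TCRBV04-01 is thereby the stop codon TAA, while that of TCRBV05-01 is CAA, which encodes glutamine. A TCRBV04-01 join that keeps the frame can therefore be translated only if trimming or a changed base removes the stop, whereas an untrimmed TCRBV05-01 gives the start CASSQ. Of the fixed list of neighbouring genes, TCRBV02-01 ended in the same 17 nucleotides as TCRBV05-01, and the fifth codons of TCRBV01-01 (GCA) and TCRBV03-01 (TTA) were also open.

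In-frame joins that ended in a stop codon were concentrated in TCRBV04-01. It held 1201 of the 2364 such rearrangements of all V genes, or 50.8%. Stop rearrangements were 10.2% of all TCRBV04-01 rearrangements, 0.494% of those of TCRBV05-01 and 0.631% of those of all other V genes. In each of the 16 mice the TCRBV04-01 share lay between 8.27% and 12.7%, and the TCRBV05-01 share lay between 0.0% and 0.943%. These ranges did not overlap. Among the other V genes with at least 1000 rearrangements the highest share was 2.77%. In 1161 of the 1201 TCRBV04-01 stop rearrangements (96.7%) the stop stood at the fifth residue, the position of the germline TAA. Of all 1201, 959 (79.9%) were seen as 1 template, beside 76.8% of the productive rearrangements of the gene. The most frequent of the 1201 held 306 templates in control replicate 3.

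Trimming of the V segment differed between frames in TCRBV04-01. Only 72 of its 5206 productive rearrangements (1.38%) had lost 0 to 2 V nucleotides, against 2152 of its 5411 out-of-frame rearrangements (39.8%) and 1039 of its 1201 stop rearrangements (86.5%). The productive share with this little trimming was 0.505% to 2.23% per mouse and the out-of-frame share 35.7% to 43.1%, so that the frames did not overlap. In TCRBV05-01 the same shares were 60.6% in productive and 56.5% in out-of-frame rearrangements, and in the other V genes they were 53.0% and 49.9%. The most frequent loss in productive TCRBV04-01 rearrangements was 5 nucleotides (37.4%), while the most frequent loss in TCRBV05-01 was 0 (36.6%). Productive TCRBV04-01 rearrangements had lost 4.71 ± 0.126 V nucleotides on average (mean over mice ± SD, n = 16), TCRBV05-01 rearrangements 1.90 ± 0.102 and those of the other V genes 2.60 ± 0.0477. By an exact sign-flip permutation test over the 16 mice, both differences from the other V genes gave an adjusted p of 9.16e-05, from the smallest raw p the test can give (3.05e-05). TCRBV04-01 was higher by 2.11 (SE 0.0340) and in 16 of 16 mice, and TCRBV05-01 differed by -0.701 (SE 0.0312) and was lower in 16 of 16 mice. Productive rearrangements hold no stop codon, so the germline TAA nearly fixed the direction for TCRBV04-01, and its p adds little. Out of frame, TCRBV04-01 differed by 0.217 (SE 0.0357) and was higher in 14 of 16 mice. TCRBV05-01 there differed by -0.437 (SE 0.0821) and was lower in 14 of 16 mice. Both had an adjusted p of 4.39e-04 by the same exact test.

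**Figure D1:**
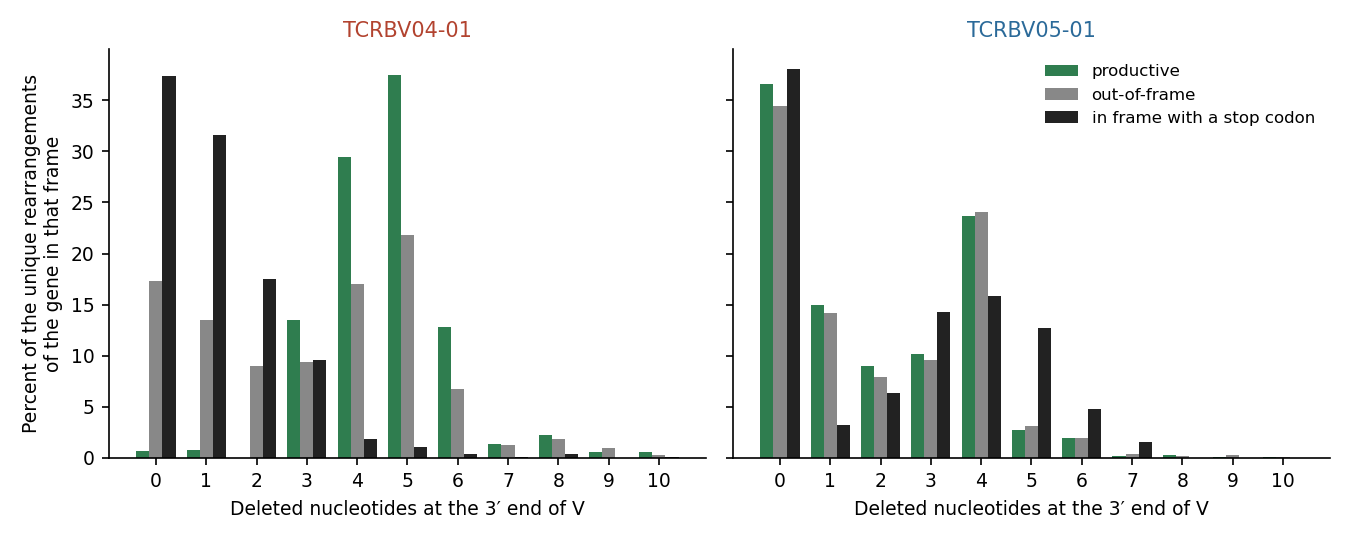
V trimming by reading frame in TCRBV04-01 (left) and TCRBV05-01 (right), pooled over 16 mice. The x axis is the number of V nucleotides deleted, the y axis the percent of the gene's unique rearrangements in that frame, and the bars are productive, out-of-frame and stop rearrangements; losses above 10 are not drawn. Productive TCRBV04-01 bars are nearly missing at 0 to 2 deleted nucleotides (1.38% in all), where 86.5% of its stop rearrangements lie, and TCRBV05-01 shows no such gap.

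How often each gene yielded a productive join followed the trimming. With 3 or more V nucleotides deleted, 60.0% of 8555 TCRBV04-01 rearrangements were productive, beside 62.9% of 5210 for TCRBV05-01 and 63.2% of 83862 for all other rearrangements. With 0 to 2 deleted, 2.21% of 3263 TCRBV04-01 rearrangements were productive, beside 66.8% for TCRBV05-01 and 66.1% for the others. Over all trimming lengths 44.1% of TCRBV04-01 and 65.2% of TCRBV05-01 rearrangements were productive, and these shares ranged over mice from 38.5% to 47.0% and from 59.7% to 69.8%.

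The share of TCRBV04-01 among unique productive rearrangements was far below its share among out-of-frame ones, and that of TCRBV05-01 was not. TCRBV04-01 made up 4.18% ± 0.348 of unique productive rearrangements (SD, n = 16; 3.59% to 4.99%) and 7.82% ± 0.743 of unique out-of-frame rearrangements (6.89% to 9.35%). The lowest out-of-frame value lay above the highest productive value. TCRBV05-01 made up 6.72% ± 0.539 of the productive set (5.78% to 7.96%) and 6.30% ± 0.542 of the out-of-frame set (5.09% to 7.55%), and these ranges overlapped. In an edgeR quasi-likelihood fit with the mouse as a block, 60.0% of the 35 V genes passed an adjusted p of 0.05, 31.4% lower and 28.6% higher in the productive set. TCRBV04-01 was lower by 1.87-fold, with a log2 ratio of -0.90 (SE 0.030, edgeR adjusted p 3.13e-114). In-frame TCRBV04-01 joins that keep the germline TAA count as stop rearrangements, not as productive ones. The direction of this ratio was therefore largely set in advance, and its p adds little. Leaving out 1 mouse in turn moved this edgeR adjusted p between 2.60e-116 and 8.21e-16, so its size is not a stable measure. Among the 21 V genes with at least 1000 rearrangements only TCRBV24-01 had a lower ratio (log2 -1.96, SE 0.037, edgeR adjusted p 6.74e-209). TCRBV05-01 was higher by a log2 ratio of 0.084 (SE 0.029, edgeR adjusted p 0.00756). That call was lost on templates, with another scaling and with DESeq2 (adjusted p 0.718, 0.0762 and 0.115). Of the 3 neighbours, TCRBV01-01 (log2 0.12, edgeR adjusted p 8.01e-04) and TCRBV03-01 (log2 0.46, edgeR adjusted p 7.03e-45) passed and were higher, and TCRBV02-01 did not pass (log2 0.035, edgeR adjusted p 0.343). Only rearrangements with at least 3 deleted V nucleotides were then compared in both frames, an alternative chosen after the data were seen. There TCRBV04-01 remained lower by a log2 ratio of -0.14 (SE 0.034, edgeR adjusted p 1.94e-04) and TCRBV05-01 stood at -0.0069 (SE 0.042, edgeR adjusted p 0.870). Of the 162 TCRBV04-01 stop rearrangements with this much trimming, 115 had lost exactly 3 nucleotides, so the limit is not fully removed there. The order of the genes therefore differed between frames in every mouse. TCRBV04-01 less TCRBV05-01 came to -2.54 percentage points of the unique productive set (SE 0.101; lower in 16 of 16 mice), and to 1.52 points of the out-of-frame set (SE 0.212; higher in 16 of 16 mice). The adjusted p of the exact sign-flip permutation test was 9.16e-05 for the first and 1.22e-04 for the second. The germline TAA limits the first of these tests in the same way.

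**Figure D2:**
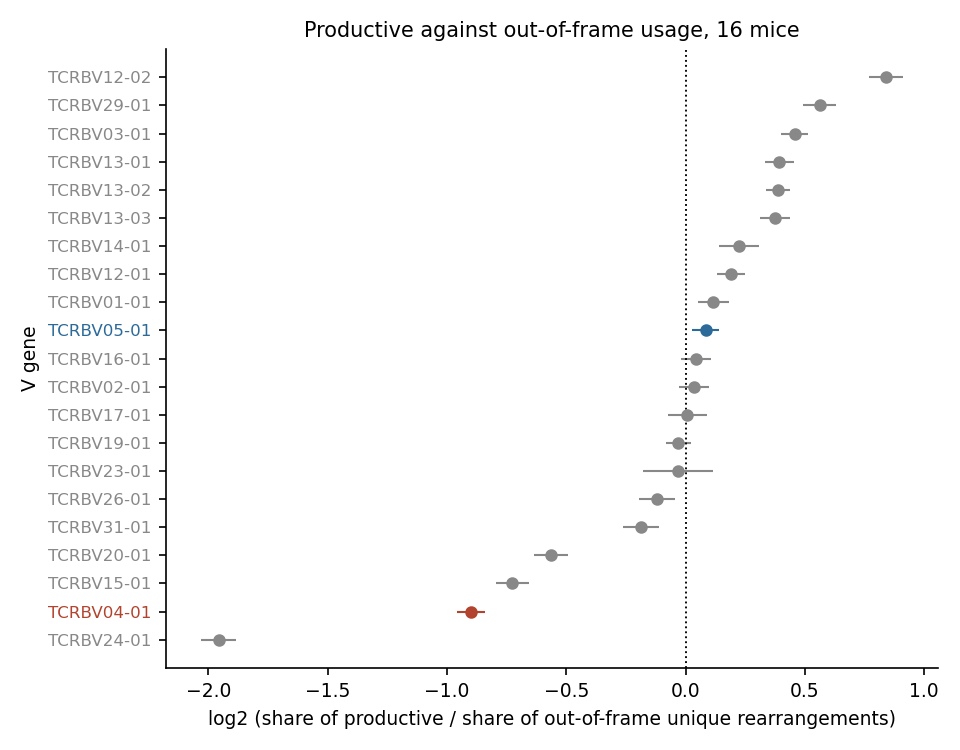
Ratio of the share of unique productive to the share of unique out-of-frame rearrangements for the 21 V genes with at least 1000 rearrangements (edgeR estimate over 16 mice; log2 scale on the x axis, V genes on the y axis, bars are 95% intervals). TCRBV04-01 (red) lies at -0.90, above TCRBV24-01 only, and TCRBV05-01 (blue) lies at 0.084.

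By templates, TCRBV04-01 ranged from 1.42% to 8.24% of productive templates over the 16 mice. It made up 1.42%, 1.71%, 3.46% and 4.08% in control replicates 1 to 4, 2.92%, 3.22%, 8.24% and 3.94% with ANT008, 3.12%, 6.92%, 2.14% and 3.16% under anti-PD-1, and 6.65%, 2.91%, 4.46% and 3.82% in the combination group. The highest control mouse lay above the lowest mouse of each treated group, so that the groups overlapped. The group means were 2.66% ± 1.30 in control, 4.58% ± 2.48 with ANT008, 3.84% ± 2.11 under anti-PD-1 alone and 4.46% ± 1.59 for both agents together (SD, n = 4). Counting error was small beside this spread: the 95% Wilson interval of the 8.24% value ran from 7.75% to 8.76%, and such intervals cover counting error only.

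TCRBV05-01 ranged from 2.19% to 11.0% of productive templates. It made up 6.05%, 3.49%, 11.0% and 2.19% in control replicates 1 to 4, 4.93%, 5.47%, 4.12% and 7.01% with ANT008, 4.40%, 4.45%, 2.74% and 5.38% under anti-PD-1, and 5.62%, 10.75%, 2.66% and 5.86% in the combination group. The control mice held both the highest and the lowest value of the series, and every other mouse lay between them. The group means were 5.68% ± 3.89, 5.38% ± 1.22, 4.24% ± 1.10 and 6.22% ± 3.35 in the same order (SD, n = 4). Averaged over all mice, TCRBV05-01 held 5.38% and TCRBV04-01 3.89% of productive templates, and TCRBV04-01 was the lower gene in 11 of 16 mice (difference -1.50 points, SE 0.836, adjusted p 0.126 by the exact sign-flip permutation test).

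**Figure D3:**
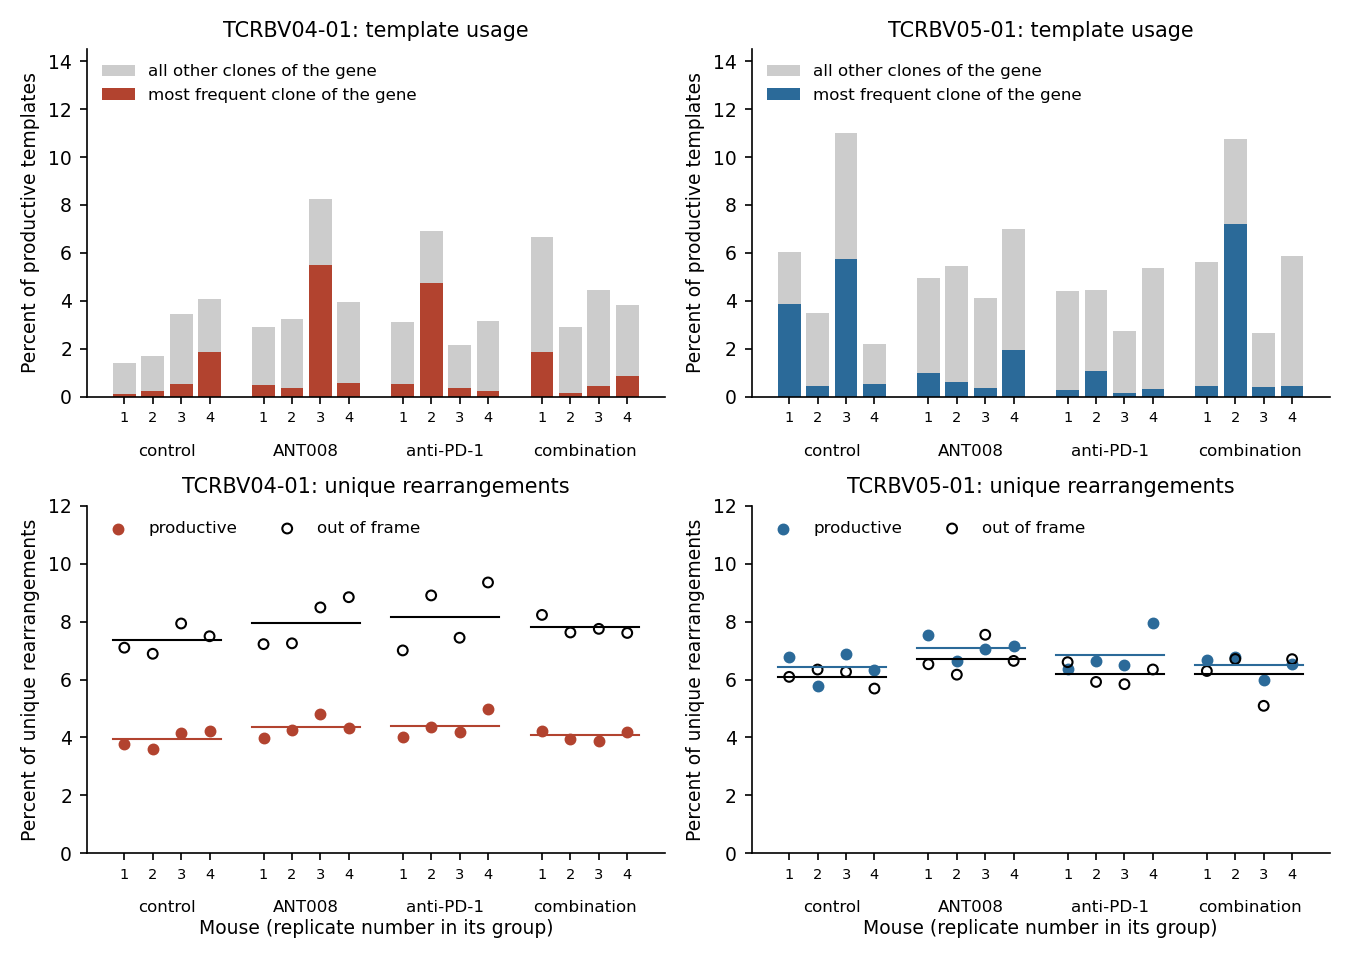
Usage of TCRBV04-01 (left) and TCRBV05-01 (right) in each of 16 mice, by group. Upper panels show the percent of productive templates, with the most frequent clone of the gene in color; lower panels show the percent of unique productive (filled) and out-of-frame (open) rearrangements, with group means as lines. The 2 tallest template bars of each gene hold its largest leading clones (5.48% and 4.74% for TCRBV04-01, 5.75% and 7.20% for TCRBV05-01), while unique usage stays between 3.59% and 4.99% and between 5.78% and 7.96%.

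Neither gene passed the test for a change in template usage with treatment, and p-values here measure the spread between mice. In the edgeR fit of all 33 V genes with productive templates, the V genes called made up 3.03% with ANT008, 0.0% with anti-PD-1, 3.03% with the combination and 3.03% in the interaction of the agents, and 0 of the 2 members were among them in any of the 4 contrasts. With anti-PD-1, where no V gene was called, 4 of 33 had an unadjusted p under 0.05, and DESeq2 also called 0. TCRBV04-01 differed from control by a log2 fold change of 0.78 with ANT008 (SE 0.47, edgeR adjusted p 0.719), 0.53 with anti-PD-1 (SE 0.47, edgeR adjusted p 0.727) and 0.74 with the combination (SE 0.47, edgeR adjusted p 0.428). Its 95% intervals reached from a 0.905-fold to a 3.26-fold level with ANT008, from 0.760-fold to 2.73-fold with anti-PD-1 and from 0.883-fold to 3.17-fold with the combination. Rises up to these upper limits could therefore not be excluded with 4 mice per group. TCRBV05-01 differed by -0.077 (SE 0.48), -0.42 (SE 0.48) and 0.13 (SE 0.48), with edgeR adjusted p-values of 1.0, 0.727 and 1.0. The departure of the combination from the sum of the single agents was -0.56 (SE 0.66) for TCRBV04-01 and 0.63 (SE 0.68) for TCRBV05-01 (edgeR adjusted p 0.756 for both). The 3 neighbouring genes gave 0 calls in these contrasts as well. The lowest of their edgeR adjusted p-values was 0.151, for TCRBV01-01 with the combination (log2 fold change -1.38, SE 0.54).

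The leading clones moved these estimates. With the most frequent rearrangement of the gene left out of each mouse, TCRBV04-01 differed from control by 0.39 (ANT008), 0.045 (anti-PD-1) and 0.65 (combination), and the interaction stood at 0.22 in place of -0.56 (edgeR adjusted p between 0.248 and 0.973). TCRBV05-01 then stood at 0.41, 0.12 and 0.17, and its interaction at -0.37 in place of 0.63 (edgeR adjusted p between 0.861 and 0.973). The TCRBV04-01 levels without their leading clone were 2.45% to 3.40% with ANT008 and 1.80% to 2.93% with anti-PD-1, beside 1.31% to 2.94% in control and 2.75% to 4.89% with the combination.

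Usage counted as unique rearrangements varied less between mice, from 3.59% to 4.99% for TCRBV04-01 and from 5.78% to 7.96% for TCRBV05-01, and gave no call for treatment either. TCRBV04-01 averaged 3.93% ± 0.299 of unique productive rearrangements in control, 4.35% ± 0.342 with ANT008, 4.39% ± 0.425 under anti-PD-1 alone and 4.07% ± 0.165 for both agents (SD, n = 4). TCRBV05-01 averaged 6.44% ± 0.504, 7.10% ± 0.366, 6.86% ± 0.739 and 6.49% ± 0.358. Counts by edgeR called 0.0% of the 33 V genes in each of the 4 contrasts, with 1 to 4 V genes at an unadjusted p under 0.05, none of them a member, and DESeq2 called 0. The log2 fold changes of TCRBV04-01 were 0.14, 0.13 and 0.052 with ANT008, anti-PD-1 and the combination (SE 0.10, 0.098 and 0.094; edgeR adjusted p 0.518, 0.864 and 0.936). Those of TCRBV05-01 were 0.14, 0.073 and 0.011 (SE 0.11, 0.11 and 0.10; edgeR adjusted p 0.518, 0.864 and 0.973). The 95% intervals of all these changes stayed between 0.875-fold and 1.27-fold. These are changes in the share of unique rearrangements, not in their number.

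The first CDR3 residues carried the trimming of each gene into protein. Productive TCRBV05-01 rearrangements began with CASSQ in 65.2% of 8310 cases, the translation of the untrimmed germline end, and 5414 of these 5415 had lost 0 to 3 V nucleotides. CASSP followed with 16.9%, and 96.4% of those rearrangements had lost 4 nucleotides, which leaves a C as the first base of the fifth codon. TCRBV04-01 had no dominant start. CASSY held 13.7%, CASSP 13.4%, CASSS 11.9%, CASSL 11.0%, CASSR 9.03% and CASSF 6.68% of its 5206 productive rearrangements, and CASSQ held 3.23%. Most of these starts went with 1 trimming length: 699 of the 715 CASSY rearrangements had lost 3 nucleotides, which leaves TA of the stop codon, 585 of the 621 CASSS and 336 of the 348 CASSF rearrangements had lost 4, which leaves T, and 639 of the 695 CASSP and 425 of the 470 CASSR rearrangements had lost 5. CASSL was the exception, with 305 of 572 (53.3%) at its most frequent loss of 4. CASSY was found in 8.75% to 22.7% of productive TCRBV04-01 rearrangements per mouse, in at most 0.222% of those of TCRBV05-01, and in 0.274% to 0.723% of those of the other V genes. The D segment also differed, with TCRBD02-01 assigned in 52.6% ± 4.33 of productive TCRBV04-01 rearrangements, 41.1% ± 3.33 of those of TCRBV05-01 and 38.4% ± 1.31 of the others (SD, n = 16). Among out-of-frame rearrangements these shares were 43.0%, 40.1% and 38.4%. D assignments were not tested.

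CDR3 loops were longer on average with TCRBV05-01 than in the pooled other V genes. Its productive CDR3s averaged 43.6 ± 0.174 nucleotides, against 41.9 ± 0.194 in the other V genes (SD, n = 16), a difference of 1.67 (SE 0.0348; higher in 16 of 16 mice, adjusted p 9.16e-05 by the exact sign-flip permutation test). CDR3s of 15 residues were its most frequent class (30.1%), while 14 residues were most frequent in TCRBV04-01 (31.3%) and in the other V genes (29.7%). TCRBV04-01 averaged 41.7 ± 0.258 nucleotides, and its difference of -0.165 (SE 0.0454) was seen in 15 of 16 mice (adjusted p 0.00345 by the same exact test), but it turned to 0.572 when rearrangements were weighted by templates (adjusted p 0.0393). Inserted nucleotides ran the other way in the genes. Productive TCRBV04-01 rearrangements carried 3.82 ± 0.175 inserted nucleotides, 0.270 more than the 3.55 of the other V genes (SE 0.0506; higher in 14 of 16 mice, adjusted p 2.93e-04 by the exact sign-flip permutation test). TCRBV05-01 carried 3.45 ± 0.113, a difference of -0.0992 (SE 0.0261; lower in 14 of 16 mice, adjusted p 0.00330 by the same exact test). Both insertion differences had the opposite sign among out-of-frame rearrangements, at -0.231 (SE 0.0662) for TCRBV04-01 and 0.235 (SE 0.0758) for TCRBV05-01. Their adjusted p-values were 0.00545 and 0.010 by the exact permutation test. CDR3 length, insertions and mean trimming were not compared with the pool for any other single V gene. How common such differences are among V genes was therefore not tested.

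**Figure D4:**
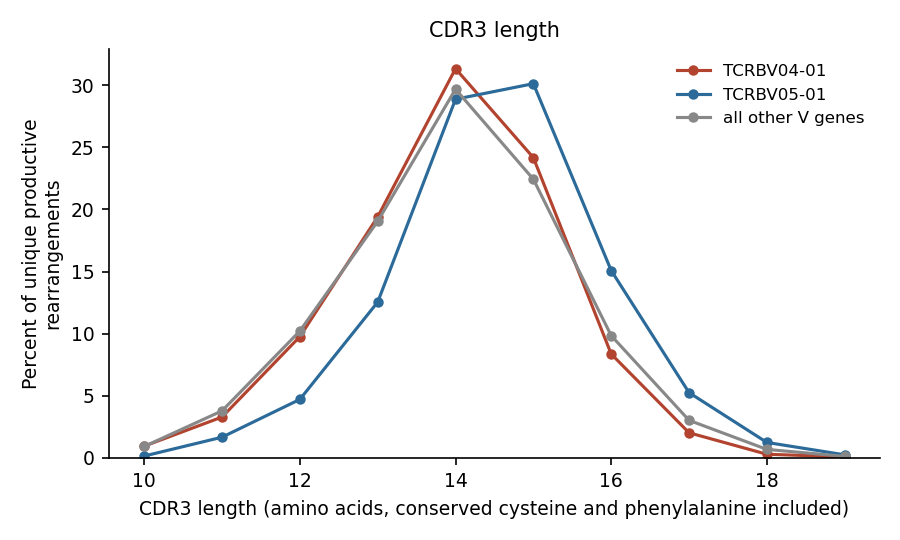
CDR3 length of unique productive rearrangements pooled over 16 mice, in residues from the conserved cysteine to the conserved phenylalanine (x axis), as a percent of each gene's rearrangements (y axis); lengths of 10 to 19 residues are drawn. The TCRBV05-01 line (blue) is shifted toward longer loops and peaks at 15 residues, and the TCRBV04-01 line (red) peaks at 14 like that of all other V genes (gray).

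J pairing of both genes also differed from that of the pooled other V genes in productive rearrangements. No other single V gene was compared with the pool in this way. How common such J differences are among V genes was therefore not tested. Usage of the 14 J genes in each member was compared with that in all other V genes by edgeR on unique productive rearrangements, with the mouse as a block and adjustment over the 28 tests of both members. For TCRBV04-01, 9 of 14 J genes passed (64.3%), 6 lower (42.9%) and 3 higher (21.4%). The lower ones were mostly of the first J cluster, which held 24.0% ± 2.50 of productive TCRBV04-01 rearrangements, against 32.9% ± 0.761 in the other V genes. TCRBJ01-02 stood lowest at a log2 ratio of -0.62 (3.66% against 5.79%), followed by TCRBJ01-04 at -0.52 (5.05% against 7.22%), TCRBJ01-01 at -0.51 (5.93% against 8.78%) and TCRBJ01-03 at -0.44 (3.73% against 4.94%), with SEs of 0.082 to 0.11 and edgeR adjusted p-values of at most 2.27e-04. TCRBJ01-06 (-0.29, edgeR adjusted p 0.0488) and TCRBJ02-02 (-0.24, edgeR adjusted p 0.0285) were lost with DESeq2, with another scaling and on templates. TCRBJ02-03 (0.43; 11.6% against 8.32%), TCRBJ02-05 (0.40; 753 of 5206 rearrangements, against a mean share of 11.0%) and TCRBJ02-04 (0.28; 9.48% against 7.83%) were higher, with edgeR adjusted p-values of at most 5.33e-04. On templates TCRBJ02-05 stood at -0.065 instead, and 4 J genes passed in place of 9. TCRBJ01-01, TCRBJ01-04 and TCRBJ02-04 did not pass there either (edgeR adjusted p 0.402, 0.0777 and 0.834). Of the 9, only TCRBJ01-02, TCRBJ01-03 and TCRBJ02-03 kept their call on templates. Without 1 mouse in turn, TCRBJ01-06 lost its call in 8 of 16 fits and TCRBJ02-02 in 2.

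For TCRBV05-01, 7 of 14 J genes passed (50.0%), 3 lower (21.4%) and 4 higher (28.6%). TCRBJ01-02 was again the lowest, at a log2 ratio of -0.85 (SE 0.085; 3.14% against 5.79%, edgeR adjusted p 4.82e-18). The other changes were small. TCRBJ02-04 (-0.16) and TCRBJ02-01 (-0.15) were lower, and TCRBJ02-03 (0.18), TCRBJ02-02 (0.17), TCRBJ01-01 (0.17) and TCRBJ01-04 (0.15) were higher, with edgeR adjusted p-values from 0.00326 to 0.0215. TCRBJ01-04 and TCRBJ02-02 were lost with DESeq2 (adjusted p 0.0876 for both) and without single mice (TCRBJ01-04 without ANT008 replicate 2, anti-PD-1 replicate 3 or combination replicate 3, TCRBJ02-02 without anti-PD-1 replicate 1 or combination replicate 3), and TCRBJ02-04 was lost without ANT008 replicate 2 (edgeR adjusted p 0.0562). On templates these 3, TCRBJ02-01 and TCRBJ02-03 did not pass (edgeR adjusted p 0.377 to 0.941). Out-of-frame rearrangements, compared in the same way as an alternative chosen after the data were seen, gave 0 of 14 for TCRBV04-01 (edgeR, with 3 J genes at an unadjusted p under 0.05) and 1 of 14 for TCRBV05-01 (5 at an unadjusted p under 0.05). That 1 was TCRBJ01-06 (log2 ratio -0.55, SE 0.16, edgeR adjusted p 0.0256), and TCRBJ01-02 there stood at -0.13 for TCRBV04-01 and -0.21 for TCRBV05-01. Other out-of-frame ratios of TCRBV05-01 were close in size to the productive ones without passing, at 0.19 for TCRBJ02-03, 0.18 for TCRBJ02-02 and -0.15 for TCRBJ02-04. The difference between the frames was not tested.

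**Figure D5:**
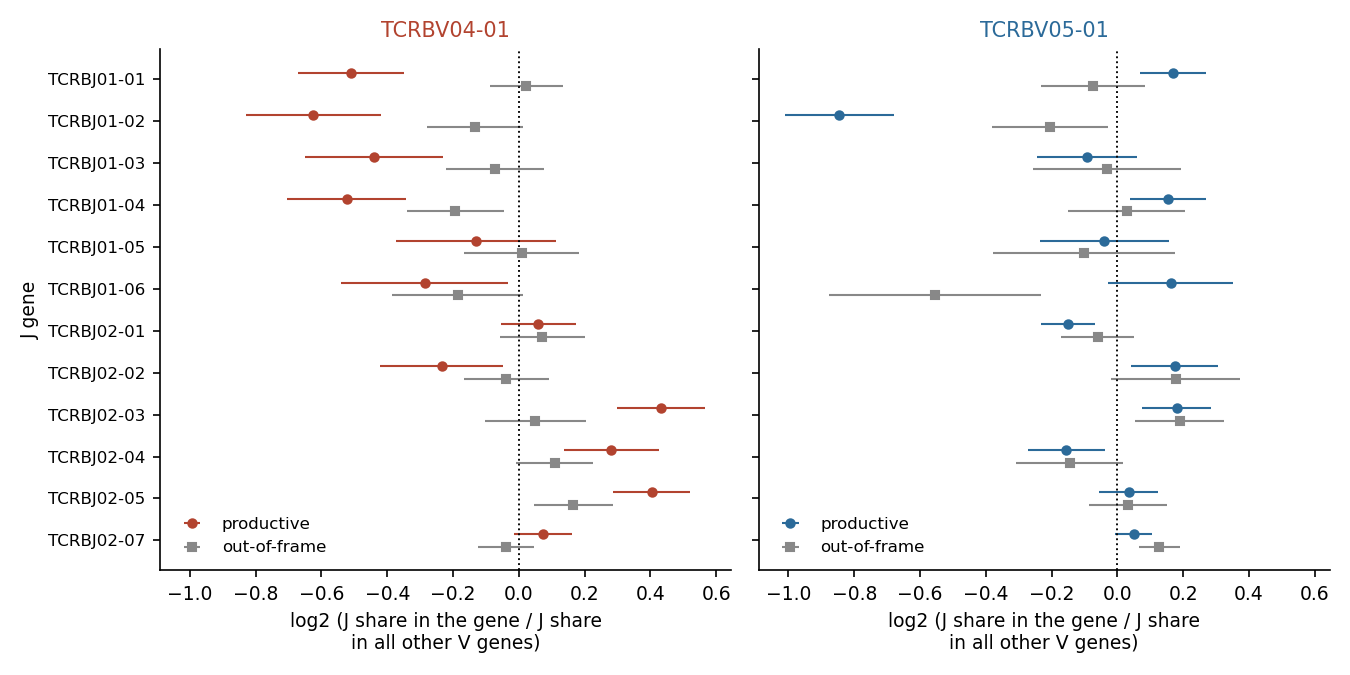
J usage of TCRBV04-01 (left) and TCRBV05-01 (right) relative to all other V genes, as the log2 ratio of J shares (x axis) for 12 J genes (y axis); colored circles are productive and gray squares out-of-frame unique rearrangements, with 95% intervals over 16 mice. TCRBJ01-07 and TCRBJ02-06, with at most 2 rearrangements in either gene and frame, are left out. First-cluster J genes lie to the left in productive TCRBV04-01 (as low as -0.62), TCRBJ01-02 lies at -0.85 in TCRBV05-01, and the out-of-frame points of these J genes lie nearer 0, while TCRBJ01-06 lies at -0.55 in out-of-frame TCRBV05-01.

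A few expanded clones made up much of the template usage in some mice. Whether a large clone stands for more cells or for more template from each cell cannot be told apart in bulk samples. Over all V genes, 163 of 126344 productive rearrangements reached 1% of productive templates in their mouse. Among them were 5 of the 5206 of TCRBV04-01, in 4 mice, and 6 of the 8310 of TCRBV05-01, in 5 mice. The most frequent clone by templates of each gene is shown as deposited, over 87 nucleotides and 5′ to 3′, with the V sequence before the CDR3 in lower case and the CDR3 in capitals from its cysteine codon. The read ends before the codon of the last phenylalanine of the CDR3, which is therefore not shown, and the trimmed V end can be set beside the germline ends above.
TCRBV04-01, anti-PD-1 replicate 2: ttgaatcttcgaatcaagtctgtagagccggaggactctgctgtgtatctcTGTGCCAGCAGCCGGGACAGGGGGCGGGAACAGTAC
TCRBV05-01, control replicate 3: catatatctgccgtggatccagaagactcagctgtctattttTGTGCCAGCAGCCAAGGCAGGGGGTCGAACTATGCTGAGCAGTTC
The first encodes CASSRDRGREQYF with TCRBJ02-07 and TCRBD01-01. It had lost 5 V nucleotides, the stop codon included, and held 1499 templates, or 4.74% of the mouse's productive templates (Wilson interval 4.52% to 4.98%) and 68.5% of its TCRBV04-01 templates. The second encodes a CDR3 of 16 residues with TCRBJ02-01, had lost 1 V nucleotide and kept the CAA codon, and held 2193 templates, 5.75% of the mouse's productive templates and the highest clone of that mouse.

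Other clones of TCRBV04-01 that led the gene at 1% or more were each prominent in 1 mouse. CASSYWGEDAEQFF (TCRBJ02-01, 3 V nucleotides deleted) held 5.48% of productive templates in ANT008 replicate 3, or 66.5% of that mouse's TCRBV04-01 templates. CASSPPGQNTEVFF (TCRBJ01-01) held 1.87% in control replicate 4 and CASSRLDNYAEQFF (TCRBJ02-01) held 1.84% in combination replicate 1. These 3 CDR3s were found with TCRBV04-01 in no other mouse, and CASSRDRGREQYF was found in 2 others with at most 2 templates. In the remaining 12 mice the leading TCRBV04-01 clone held 0.115% to 0.876% of productive templates.

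For TCRBV05-01 the highest share was that of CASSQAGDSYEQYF (TCRBJ02-07), at 7.20% of productive templates in combination replicate 2 (Wilson interval 6.88% to 7.53%), the highest clone of that mouse and 67.0% of its TCRBV05-01 templates. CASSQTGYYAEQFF (TCRBJ02-01) held 3.85% in control replicate 1, a CASSH clone of 14 residues (TCRBJ01-03) 1.94% in ANT008 replicate 4 and a CASSQ clone of 16 residues (TCRBJ02-02) 1.08% in anti-PD-1 replicate 2. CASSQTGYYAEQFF and the CDR3 of anti-PD-1 replicate 2 each occurred in 1 other mouse, with 3 templates and 1 template, and the other 3 leading CDR3s occurred in none. The 2 largest of these clones lay in the 2 mice with the highest template usage of the gene. With the leading clone taken out of both the gene and the total, TCRBV05-01 stood at 5.57% in place of 11.0% in control replicate 3 and at 3.83% in place of 10.75% in combination replicate 2. Rearrangements seen as 1 template made up 74.7% ± 6.29 of TCRBV04-01, 74.2% ± 6.95 of TCRBV05-01 and 73.4% ± 4.87 of the other V genes per mouse (SD, n = 16). The differences of 1.29 (SE 0.800) and 0.792 points (SE 0.972) did not pass the exact sign-flip permutation test (adjusted p 0.152 and 0.424). Mean templates per rearrangement were 4.04 for TCRBV04-01, 3.35 for TCRBV05-01 and 4.59 for the other V genes. The TCRBV05-01 difference of -1.24 (SE 0.518; lower in 14 of 16 mice) passed at an adjusted p of 0.0377 by the same exact test, and 10 of the 16 fits without 1 mouse lost the call.

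Most CDR3s of both genes were found in 1 mouse, like 93.0% of those of the other V genes. In all of them the shared CDR3s carried fewer insertions. Of 4547 TCRBV04-01 CDR3s, 4227 (93.0%) were found in 1 mouse, 287 in 2 or 3 and 33 (0.726%) in 4 or more. Of 7097 TCRBV05-01 CDR3s, 88 (1.24%) were found in 4 or more mice, beside 0.818% for the other V genes pooled. Among 20 single V genes TCRBV05-01 ranked 3rd in this share, below its neighbour TCRBV03-01 (1.41%), and TCRBV04-01 ranked 9th. Rearrangements of CDR3s found in 1 mouse, in 2 or 3 and in 4 or more averaged 4.14, 2.43 and 2.28 inserted nucleotides for TCRBV04-01, and 3.89, 2.09 and 1.94 for TCRBV05-01. For the other V genes the same averages were 3.89, 2.21 and 1.91. More templates and more rearrangements in a mouse make finding a CDR3 there more likely, and these shares were not tested.

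The CDR3s found in most mice differed between the genes. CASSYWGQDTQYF led TCRBV04-01, in 13 of 16 mice but with 28 templates in all, followed by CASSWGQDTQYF, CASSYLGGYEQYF and a CASSP sequence of 15 residues in 8 mice each and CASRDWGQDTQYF in 7. Of these 5, 4 most often used TCRBJ02-05, 1 of the J genes that were higher with this gene. The CASSP sequence was found in all 4 control mice, 2 ANT008 mice, 2 anti-PD-1 mice and 0 combination mice, with at most 0.0770% of productive templates in any mouse. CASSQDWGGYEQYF led TCRBV05-01, in 15 of 16 mice with 465 templates and 9 nucleotide versions, at most 0.221% of productive templates in any mouse. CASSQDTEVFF followed in 14 mice, and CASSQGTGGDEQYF, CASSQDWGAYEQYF and a sequence of 15 residues in 10 mice each. These 5 all began with CASSQ, and 4 of them had a version with no inserted nucleotide. No difference between treatment groups was tested for single CDR3s.

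The template profiles of the genes over mice were no more alike than the median of either gene with the other V genes. Likeness was the root mean square difference between profiles of log2(percent + 0.01) of productive templates over the 16 mice, each centred on its own mean, and lower values mean more alike. TCRBV04-01 and TCRBV05-01 differed by 0.93, while the median over other V genes was 0.91 for TCRBV04-01 and 0.81 for TCRBV05-01. The V genes most like TCRBV04-01 were TCRBV11-01 (0.59), TCRBV13-01 (0.60) and TCRBV28-01 (0.61), and those most like TCRBV05-01 were TCRBV09-01 (0.55), TCRBV02-01 (0.59) and TCRBV20-01 (0.59). TCRBV11-01, TCRBV28-01 and TCRBV09-01 had 2, 4 and 11 rearrangements in all mice together, so their profiles were nearly flat and likeness to them says little. By the SD of log2 template usage over mice, TCRBV04-01 ranked 8th (0.68) and TCRBV05-01 ranked 12th (0.65) of the 21 V genes with at least 1000 rearrangements.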

How the data were processed

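Samples were grouped from the labels. The deposited values were template counts per rearrangement, made by the sequencing service with the immunoSEQ mouse TCRβ assay, which reads 87 nucleotides across the junction, corrects primer bias with synthetic templates and assigns V, D and J genes and frame. The counts were used as deposited, summed per V gene, or each rearrangement was counted once. All 16 files summed to their stated totals. The treatment in the file headers matched the title in 16 of 16 samples, and the number in 3. No reference genome was used, so no coordinates are given.

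The members, the gene list (TCRBV01-01, TCRBV02-01 and TCRBV03-01) and the tests were chosen with earlier results of these data known. Other names follow a rule: the 3 V genes with the most similar template profiles per member, clones leading a gene at 1% or more of productive templates, the 5 CDR3s per member found in most mice, and J genes past the threshold. TCRBV24-01 was named after its values were seen. Groups were compared with the quasi-likelihood test of edgeR 4.0.16 (R 4.3.3) over all V genes with all 16 mice in 1 fit. Frames and J genes were compared with the mouse as a block, and p-values were adjusted by the Benjamini-Hochberg method at 0.05. DESeq2 1.42.0 was an alternative. CDR3 measures were compared within mice by a two-sided exact sign-flip permutation test (65536 patterns), adjusted over 12 tests (scipy 1.17.1, Python 3.11.15). The V ends were read from rearrangements with no deleted V nucleotide. Alternatives were TMM scaling, a low count filter, templates or out-of-frame rearrangements, leaving out the leading clone or each mouse, a replicate block and only the groups compared. On simulated counts log2 changes of 2 were found in 63.1% of cases by the template fit (ANT008 contrast, 33 V genes), and log2 changes of 1 in 100% by the fit of unique rearrangements. Within each fit the simulation gave all V genes the same spread and no single dominant clones. These rates need not hold for the members.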

Additional observations from a re-analysis of the deposited data

Results flagged for a closer look

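Among 48 sets of 4 mice examined for the members, 9 held a mouse that stood apart from the other 3 by Dixon's test. Chance marks about 1 in 20 such sets, and the measures are not independent. For TCRBV04-01 the leading clone made up 66.5% of the gene's productive templates in ANT008 replicate 3 (10.6% to 16.4% in the other mice of the group) and 68.5% in anti-PD-1 replicate 2 (7.49% to 16.8%). As a percent of all productive templates of the mouse these clones were 5.48% (others 0.340% to 0.563%) and 4.74% (others 0.237% to 0.525%). For TCRBV05-01 the leading clone made up 67.0% of the gene's templates in combination replicate 2 (others 7.65% to 14.4%) and 7.20% of all productive templates of that mouse (others 0.383% to 0.448%). It made up 24.2% of the gene's templates in anti-PD-1 replicate 2 (others 4.67% to 6.57%). The TCRBV04-01 stop share was lowest in combination replicate 1, at 8.27% (others 10.2% to 10.5%). TCRBV05-01 made up 7.96% of unique productive rearrangements in anti-PD-1 replicate 4 (others 6.35% to 6.63%), the mouse with the fewest productive templates.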

How the results depend on the processing

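Of 362 alternative values for the 16 treatment results, 0 passed the adjusted threshold (edgeR, DESeq2 and the exact permutation test included), and none of the 16 had an unadjusted p under 0.05. Some directions turned. With the leading clone left out, the log2 fold change of the TCRBV04-01 interaction was 0.22, and for TCRBV05-01 it was 0.41 with ANT008, 0.12 with anti-PD-1 and -0.37 for the interaction. In out-of-frame templates these TCRBV05-01 values were 0.54, 0.25 and -0.16. TCRBV05-01 with the combination was -0.045 with DESeq2 and -0.060 with TMM scaling. Without 1 mouse in turn, TCRBV04-01 ran from 0.34 to 1.06 with ANT008, 0.074 to 0.81 with anti-PD-1, 0.49 to 1.02 with the combination and -0.84 to -0.11 for the interaction, and TCRBV05-01 from -0.35 to 0.46, -0.69 to 0.12, -0.27 to 0.67 and 0.090 to 0.90. Leaving out control replicate 3 turned TCRBV05-01 with ANT008 to 0.46 and with anti-PD-1 to 0.12, and leaving out ANT008 replicate 3 turned the first to 0.031. By unique rearrangements, TCRBV05-01 with the combination ran from -0.043 to 0.052.

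Whether the replicate numbers pair the samples could not be settled. Deviations of equally numbered mice correlated by 0.106, 0.0623, 0.00868 and -0.0721 on average, and single pairs ran from -0.374 to 0.643. Among mice of other groups, 7 of 16 mice correlated best with one of their own number. This check cannot exclude a pairing. It used the numbers in the titles, which match the file headers in 3 of 16 samples, and the header numbers were not tried. With the replicate block the template changes were 0.77, 0.61, 0.82 and -0.56 for TCRBV04-01 and -0.11, -0.46, 0.057 and 0.63 for TCRBV05-01 (ANT008, anti-PD-1, combination, interaction), and it changed no call.

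The frame ratio of TCRBV04-01 ran from -0.91 to -0.89 without 1 mouse, with edgeR adjusted p-values from 2.60e-116 to 8.21e-16. That of TCRBV05-01 lost its call on templates (0.10), with TMM (0.068) and with DESeq2 (0.074), stood at -0.0069 with at least 3 deleted nucleotides, and ran from 0.071 to 0.10 without 1 mouse. J genes called fell from 9 to 4 on templates and 0 out of frame for TCRBV04-01, and from 7 to 3 and 1 for TCRBV05-01, with ranges of 7 to 9 and 5 to 7 without 1 mouse. Single J ratios turned for TCRBV04-01 with TCRBJ01-01 (0.023) and TCRBV05-01 with TCRBJ01-01 (-0.074) out of frame, and for TCRBV04-01 with TCRBJ02-05 on templates (-0.065).

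The TCRBV04-01 length difference was 0.572 weighted by templates, 0.0 for medians and 0.539 out of frame, and its insertion difference was -0.231 out of frame. The TCRBV05-01 insertion difference was -0.213 weighted, 0.0 for medians (both without a call) and 0.235 out of frame. The shares seen as 1 template passed out of frame, at 1.47 and 3.46 points. Templates per rearrangement of TCRBV05-01 differed by 0.0 for medians and by -1.48 to -0.890 without 1 mouse, where 10 of 16 lost the call, also at -0.890 without control replicate 4 and -1.10 without anti-PD-1 replicate 3 (adjusted p at most 0.0732). TCRBV04-01 less TCRBV05-01 was 2.16 points of templates and 1.52 points of unique rearrangements out of frame, and -1.87 to -1.07 points of productive templates without 1 mouse, passing at -1.87 without ANT008 replicate 3 (adjusted p 0.0484 by the exact permutation test). The cause of these shifts was not tested. Depth and 4 mice per group limit the treatment results.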

Other observations

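Out-of-frame templates entered the treatment comparisons above only as an alternative. TCRBV04-01 made up 4.74% ± 1.73 of them in control, 7.63% ± 1.90 with ANT008, 9.55% ± 2.79 under anti-PD-1 alone and 6.47% ± 1.55 for both agents (SD, n = 4). No treatment contrast of TCRBV04-01 or TCRBV05-01 passed the adjusted threshold in edgeR, and the lowest adjusted p was 0.157, for TCRBV04-01 with anti-PD-1 (log2 fold change 1.01, SE 0.49). The largest out-of-frame rearrangement of TCRBV04-01 held 481 templates in anti-PD-1 replicate 2, the mouse in which its productive leading clone held 1499. Whether both came from the same cells was not tested. The largest of TCRBV05-01 held 576 templates in control replicate 3, the mouse in which its productive leading clone held 2193.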
